A study of Mus musculus with 64 samples.

Results

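Of 55809 genes measured, 7 constant region genes of the T cell receptor are described here. They were Trac, Trbc1 and Trbc2 of the αβ receptor and Trdc, Trgc1, Trgc2 and Trgc4 of the γδ receptor. A further gamma constant row, Trgc3, is not among these 7 and is left out of all sums and shares of γδ genes. All 7 were counted in each of 64 mouse libraries, made from Treg cells or from cells whose Foxp3 locus is active but gives no Foxp3 protein. The family was chosen by measured values, because the day 28 response of Trgc2 to Foxp3 differed between resting and active cells. Values of day 28 are therefore given as a description, without a test.

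A T cell receptor is a pair of chains whose variable ends are assembled from V, D and J segments, and each rearranged segment is spliced onto a constant region gene that anchors the chain in the membrane. The αβ T cells, which include CD4+ helper and Treg cells, use Trac with Trbc1 or Trbc2, whereas γδ T cells use Trdc with one of the Trgc genes. The delta genes lie within the alpha locus, so that rearrangement of the alpha chain removes them from that chromosome, while the gamma locus stays in place and can be transcribed in αβ T cells. Foxp3 is the transcription factor that defines Treg cells.

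In the reversible-allele experiment, heterozygous female Foxp3 LSL mice carried a loxP-flanked Thy1.1 and STOP cassette in Foxp3, followed by GFP. PlusFoxp3 mice (Foxp3-LSLCD4-CreERT2) also carried CreERT2 at Cd4, so that a single dose of 4-hydroxytamoxifen (4-OHT) switched Foxp3 on, and GFP+ cells were sorted after treatment. MinusFoxp3 mice (Foxp3-LSLCD4-WT) lacked CreERT2, received the same dose and gave Thy1.1+ cells that make no Foxp3 protein, which the labels call Treg wannabe cells. Resting and active cells of spleen and lymph nodes were taken from untreated mice (day 0) or 3, 7, 14 and 28 days after the dose, each group having 2 libraries. Treg cells of untreated Foxp3GFP mice gave 2 further libraries per state. In the degron experiment Foxp3 was joined in all mice to a tag for auxin-induced degradation (Foxp3-AID), with a ZsGreen reporter and Cre, and all received 5-ph-IAA for 7 days. TIR1 mice (Foxp3-AID ROSA26-TIR1(F74G)) express, in cells where Foxp3-driven Cre has removed a STOP cassette, the plant ligase that destroys the fusion protein, and WT mice (Foxp3-AID ROSA26-WT) do not. Adult heterozygous females gave CD73- thymic Treg cells and active Treg cells of spleen and lymph nodes (3 libraries per genotype each), and infants gave Treg cells of spleen and lymph nodes (4 libraries per genotype). For its infant experiments the study gives hemizygous Foxp3-AID males, which have no Treg cells with untagged Foxp3. It reports severe autoimmune disease in TIR1 neonates treated for 2 weeks. In infants, Foxp3 loss in the cell and disease in the mouse cannot be told apart. The study's methods give a sort gate of CD4+ TCRβ+ cells for the reversible-allele and the adult degron groups. All groups were bulk samples, in which fewer cells of a type and less RNA per cell cannot be told apart.

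The total per library was between 27753211 and 34029692 read pairs for the adult degron groups, between 33704114 and 55801009 for infants, and between 35097257 and 57419138 for the 44 others. The 20 degron libraries were counted under a stricter read filter than the other 44, so no test crosses the 2 experiments. The 12 adult degron files carry a library name in their header that the labels give to the opposite genotype, and the header name was used. Under the recorded attachment of files to samples, the sign of each adult TIR1 against WT value below is the opposite. For infants the title and the genotype field disagree, and the groups are called titled TIR1 and titled WT. Foxp3 itself was 46.7 to 63.4 CPM (counts divided by the library total and scaled to 1000000) in active minusFoxp3 and 426 to 582 CPM in active plusFoxp3 libraries of days 3 to 14. In resting cells these ranges were 47.3 to 81.5 and 448 to 614 CPM. Between TIR1 and WT libraries it did not differ past the threshold (edgeR adjusted p = 0.988 in thymus, 1 in adult active cells and 0.826 in infants), and the degron acts on the protein. The markers of CD4+ T cells and Treg cells (Cd4, Cd3e, Foxp3, Il2ra, Ikzf2 and Ctla4) summed to 1748 to 4776 CPM over the 64 libraries.

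The 7 genes lie in 3 loci of the GRCm39 genome, all annotated as constant region genes. Trac (chr14:54457978-54461663) and Trdc (chr14:54380308-54386325) share the alpha and delta locus, and Trbc1 (chr6:41515152-41516815) and Trbc2 (chr6:41523664-41525286) are neighbours, all on the plus strand. Trgc1 (chr13:19398273-19401194, plus), Trgc2 (chr13:19488819-19491721, minus) and Trgc4 (chr13:19528728-19536926, plus) belong to separate cassettes of the gamma locus. Their exons cover 935 bases in Trac, 749 in Trbc1, 692 in Trbc2, 3865 in Trdc, 924 in Trgc1, 914 in Trgc2 and 985 in Trgc4. Trdc exons overlap 2 rows of the opposite strand, Trdv5 by 207 bases and Gm43434 by 47 bases, and counting did not use strand, so reads there cannot be told apart.

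How alike the members are decides how far reads can be assigned to one of them, so a stretch of their first coding exon is shown. These 120-base stretches (GRCm39) run 5′ to 3′ in the direction of the gene, at chr6:41515351-41515470 for Trbc1 and chr6:41523863-41523982 for Trbc2 (both plus strand). Capitals mark the base that differs from Trbc1.
Trbc1: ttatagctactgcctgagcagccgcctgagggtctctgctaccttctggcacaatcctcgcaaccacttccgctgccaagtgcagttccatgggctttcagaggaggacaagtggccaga
Trbc2: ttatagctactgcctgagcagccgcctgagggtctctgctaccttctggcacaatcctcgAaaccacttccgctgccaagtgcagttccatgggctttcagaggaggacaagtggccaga
The gamma stretches lie at chr13:19398380-19398499 for Trgc1 (plus strand), chr13:19491495-19491614 for Trgc2 (minus strand) and chr13:19528835-19528954 for Trgc4 (plus strand). Capitals mark bases that differ from Trgc1.
Trgc1: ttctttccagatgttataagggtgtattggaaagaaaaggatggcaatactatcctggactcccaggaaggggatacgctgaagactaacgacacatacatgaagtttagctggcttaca
Trgc2: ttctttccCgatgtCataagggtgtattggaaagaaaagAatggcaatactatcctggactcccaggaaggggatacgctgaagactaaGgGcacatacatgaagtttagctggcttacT
Trgc4: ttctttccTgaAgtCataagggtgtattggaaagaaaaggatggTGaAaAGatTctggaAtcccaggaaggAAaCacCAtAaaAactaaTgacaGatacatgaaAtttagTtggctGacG
Within these stretches Trbc2 differed from Trbc1 at 1 base, Trgc2 from Trgc1 at 6 bases and Trgc4 from Trgc1 at 23 bases. Over the whole first coding exon the identity was 99.7% (374 of 375 bases) for Trbc1 and Trbc2, 97.3% (321 of 330 bases) for Trgc1 and Trgc2, and 82.1% (271 of 330 bases) for Trgc1 and Trgc4. Of all 100-base windows of the joined exons, 28.2% of Trbc1 windows recurred in Trbc2, 0.606% of Trgc1 windows in Trgc2 and 7.64% of Trgc1 windows in the further constant row Trgc3, while Trgc4 shared none with Trgc1 or Trgc2. Of 50-base windows, 40.4% of Trbc1 windows recurred in Trbc2, 17.9% of Trgc1 windows in Trgc2 and 18.2% of Trgc2 windows in Trgc1. The split between Trbc1 and Trbc2 is therefore uncertain. The split between Trgc1 and Trgc2 is less so, but some Trgc1 reads may still be counted as Trgc2, which matters most where Trgc1 is far higher. Results were also computed with each pair summed.

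Levels of different genes were compared per length, as CPM per kb of exon. By group means, Trbc2, Trac and Trbc1 led in every group of the reversible allele, and the γδ genes differed in order between groups. In active minusFoxp3 cells at day 0 the mean levels per kb were 2869 for Trbc2, 2158 for Trac, 1279 for Trbc1, 882 for Trgc1, 32.5 for Trgc2, 3.11 for Trgc4 and 0.820 for Trdc. Trgc1 thus came next after Trbc1, the lowest of the αβ genes, and far above the other γδ genes. In active GFP Treg cells the corresponding γδ levels per kb were 4.33 for Trgc1, 1.76 for Trgc4, 1.67 for Trdc and 0.712 for Trgc2, and the libraries of Trgc4 overlapped those of Trdc and Trgc2. Resting minusFoxp3 cells at day 0 had 47.3 for Trgc1, 7.52 for Trgc4, 6.60 for Trgc2 and 3.47 for Trdc per kb, with overlapping libraries of Trgc4 and Trgc2. In thymic WT degron libraries the order was Trdc at 9.34, Trgc2 at 5.44, Trgc1 at 2.21 and Trgc4 at 0.631 per kb.

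Of the γδ genes, Trgc1 and Trgc2 had lower RNA levels in active cells once Foxp3 was restored, while the 3 αβ genes and Trdc did not change past the threshold. The question here is what Foxp3 does to cells that had developed without it. Fold changes are plusFoxp3 against minusFoxp3 on the log2 scale, averaged over days 3, 7 and 14, from a quasi-likelihood model of edgeR over all genes, with p-values adjusted over all genes tested. Of those genes, 3.18% were called at an adjusted p under 0.05, and 2 of the 7 members were. DESeq2 called 3.

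Trgc1 encodes a constant region of the gamma chain. In active minusFoxp3 libraries it was 875 and 755 CPM at day 0, 579 and 594 CPM at day 3, 1407 and 796 CPM at day 7, and 769 and 677 CPM at day 14. In active plusFoxp3 libraries it was 512 and 669 CPM at day 0, 309.6 and 344 CPM at day 3, 235 and 219 CPM at day 7, and 220.5 and 153 CPM at day 14. The minusFoxp3 and plusFoxp3 libraries of days 3 to 14 did not overlap, and at day 0, before treatment, the untreated plusFoxp3 libraries were also below both minusFoxp3 libraries. The day 0 difference did not pass the threshold (log2 fold change -0.45 ± 0.33 (SE), edgeR adjusted p = 0.999). Over days 3 to 14 Trgc1 fell (log2 fold change -1.66 ± 0.20 (SE), edgeR adjusted p = 0.000101), and leaving out any of the 12 libraries kept the call. The plot of levels in the reversible-allele libraries shows both groups day by day, with the highest single library, active minusFoxp3 day 7 replicate 1, well apart from its partner.

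**Figure D1:**
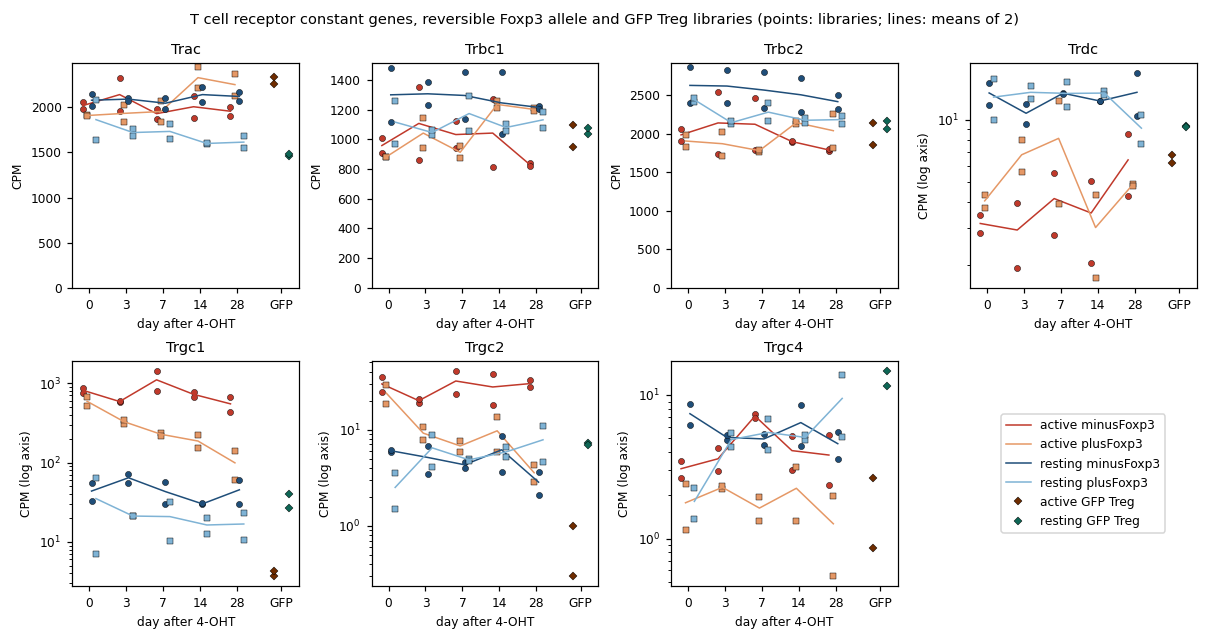
CPM of the 7 constant genes by day after 4-OHT in resting and active cells of the reversible allele and in GFP Treg cells, as 1 panel per gene with points for libraries and lines for group means. Trgc1 in active plusFoxp3 libraries ranges from 153 to 344 CPM over days 3 to 14, below the active minusFoxp3 range of 579 to 1407 CPM.

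Trgc2, the close copy of Trgc1 in another cassette, was 34.7 and 24.7 CPM at day 0, 18.9 and 20.9 CPM at day 3, 40.1 and 23.6 CPM at day 7, and 37.5 and 17.8 CPM at day 14 in active minusFoxp3 libraries. In active plusFoxp3 libraries it was 18.6 and 29.1 CPM at day 0, 7.74 and 10.6 CPM at day 3, 7.63 and 5.88 CPM at day 7, and 13.6 and 5.81 CPM at day 14. Again the libraries of days 3 to 14 did not overlap, whereas those of day 0 did. Trgc2 fell over days 3 to 14 (log2 fold change -1.58 ± 0.28 (SE), edgeR adjusted p = 0.0038) and kept the call without any single library. Of all genes compared, 2.30% had libraries of days 3 to 14 that did not overlap, and Trgc1 and Trgc2 were the 2 members among them. Trgc2 made up 3.41% ± 1.21 (SD, n = 6) of the summed Trgc1, Trgc2 and Trgc4 counts in active plusFoxp3 and 3.22% ± 0.745 (SD, n = 6) in active minusFoxp3 libraries, and an exact permutation test within days did not pass the threshold (p = 0.713). In active reversible-allele libraries there were 2.5 to 6.3 Trgc2 counts per 100 Trgc1 counts. With the counts of the pair summed, the sum was called as well. Since most of that sum is Trgc1, its call cannot show whether Trgc2 fell by itself or whether its counts include Trgc1 reads.

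Trgc4, the least similar of the 3 gamma genes, stayed at low levels. It was 4.24 and 2.95 CPM at day 3, 7.31 and 6.95 CPM at day 7, and 5.21 and 2.98 CPM at day 14 in active minusFoxp3 libraries and 2.23 and 2.32 CPM at day 3, 1.32 and 1.94 CPM at day 7, and 3.16 and 1.32 CPM at day 14 in active plusFoxp3 libraries, with overlap. The difference did not pass the threshold (log2 fold change -1.19 ± 0.36 (SE), edgeR adjusted p = 0.097), although it was called by DESeq2 (adjusted p = 0.0167) and by edgeR without the count filter (adjusted p = 0.00219) or in the compared libraries alone (adjusted p = 0.0388). Trdc, the only constant gene of the delta chain, went the other way in point estimate, with 3.95 and 1.94 CPM at day 3, 2.78 and 5.56 CPM at day 7, and 5.06 and 2.06 CPM at day 14 in active minusFoxp3 and 5.61 and 7.93 CPM at day 3, 3.92 and 12.3 CPM at day 7, and 1.74 and 4.32 CPM at day 14 in active plusFoxp3 libraries. These overlapped, and the difference did not pass the threshold (log2 fold change 0.67 ± 0.33 (SE), edgeR adjusted p = 0.387).

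The αβ genes were far more even. Trac ranged from 1873 to 2325 CPM in the active minusFoxp3 and from 1835 to 2440.2 CPM in the active plusFoxp3 libraries of days 3 to 14 (log2 fold change 0.06 ± 0.06 (SE), edgeR adjusted p = 0.749). For Trbc1 the ranges were 816 to 1352 and 873 to 1259 CPM (log2 fold change 0.03 ± 0.11 (SE), edgeR adjusted p = 0.948). For Trbc2 they were 1735 to 2545 and 1713 to 2161 CPM (log2 fold change -0.06 ± 0.10 (SE), edgeR adjusted p = 0.874). All 3 overlapped between the groups. At day 0 none of the 7 members was called in active cells, by edgeR or by DESeq2, and none had an unadjusted p under 0.05, against 0.00481% of all genes called by edgeR and 0.0818% by DESeq2.

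In resting cells restored Foxp3 went with slightly lower Trac and with no called change of a γδ gene. The background was 2.48% of genes called over days 3 to 14. Trac was 2108 and 2072 CPM at day 3, 2104 and 1985 CPM at day 7, and 2225 and 2055 CPM at day 14 in resting minusFoxp3 libraries and 1679 and 1761 CPM at day 3, 1819 and 1646 CPM at day 7, and 1597 and 1602 CPM at day 14 in resting plusFoxp3 libraries. The groups did not overlap, as held for 2.65% of all genes and for none of the other 6 members. Trac fell by 0.28 ± 0.07 (SE) on the log2 scale (edgeR adjusted p = 0.0355), and this call was lost without any 1 of the 12 libraries (adjusted p up to 0.146), with RLE size factors (adjusted p = 0.053), without the count filter (adjusted p = 0.161) and with summed pairs (adjusted p = 0.0591). B cell markers summed to 513 to 668 CPM in these minusFoxp3 and 698 to 1109.8 CPM in these plusFoxp3 libraries, without overlap, and their part in the Trac difference was not tested.

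Trgc1 in resting cells was 72.6 and 55.9 CPM at day 3, 56.1 and 29.8 CPM at day 7, and 29.8 and 30.5 CPM at day 14 without Foxp3 and 21.1 and 21.3 CPM at day 3, 31.4 and 10.3 CPM at day 7, and 20.1 and 12.5 CPM at day 14 with Foxp3. These values overlap and the difference missed the threshold (log2 fold change -1.15 ± 0.41 (SE), edgeR adjusted p = 0.175). It was called by edgeR without the count filter (adjusted p = 7.85e-12) and in the compared libraries alone (adjusted p = 0.0345), and in none of the 12 fits without a library. The value without the count filter is far below that of the main fit, for a reason that was not tested, and nothing is read from it. Trgc2 was 6.83 and 3.44 CPM at day 3, 3.99 and 4.62 CPM at day 7, and 8.66 and 3.66 CPM at day 14 in resting minusFoxp3 and 8.86 and 4.06 CPM at day 3, 4.99 and 4.70 CPM at day 7, and 5.16 and 6.55 CPM at day 14 in resting plusFoxp3 libraries (log2 fold change 0.18 ± 0.30 (SE), edgeR adjusted p = 0.818). The 2 groups covered much the same range. Trgc4 was 4.40 to 8.45 CPM without and 4.16 to 6.80 CPM with Foxp3, and Trdc 9.52 to 13.4 and 11.5 to 15.2 CPM, neither with a difference past the threshold (edgeR adjusted p = 0.945 and 0.616). At day 0 no member was called in resting cells by edgeR, with an unadjusted p under 0.05 for 2 of 7, against 0.00487% of all genes called. DESeq2 called Trgc4 there, with a background of 0.219%. The library of resting plusFoxp3 day 0 replicate 1 was low for 3 gamma genes, with 7.13 CPM of Trgc1 against 63.1 CPM in replicate 2. Without replicate 2, so with this library alone, 3 members (Trgc1, Trgc4 and Trac) and 2096 of all genes were called.

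Whether the response depends on state was tested as the active minus the resting Foxp3 effect over days 3 to 14, in a fit of all 44 libraries. For Trgc2 this difference was -1.78 ± 0.43 (SE) on the log2 scale and missed the threshold (edgeR adjusted p = 0.0651). For Trac it was 0.33 ± 0.08 (SE) and missed it as well (edgeR adjusted p = 0.0717). For Trgc1 it was -0.53 ± 0.48 (SE, edgeR adjusted p = 0.841), so the fall of Trgc1 in active cells was not shown to differ from that in resting cells. No member was called, 3 had an unadjusted p under 0.05, and 0.462% of all genes were called. DESeq2 called Trgc2 and Trac (adjusted p = 0.00605 and 0.00346), with 1.52% of all genes, and edgeR called Trgc2 without the count filter (adjusted p = 7.2e-08). The value without the filter is again far below that of the main fit, for a reason that was not tested, and nothing is read from it.

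The values that chose the family are those of day 28, and nothing further is read from them. Trgc2 was 32.5 and 27.4 CPM in active minusFoxp3 and 4.27 and 2.85 CPM in active plusFoxp3 libraries of that day. In resting cells it was 3.61 and 2.08 CPM and 4.65 and 11.01 CPM. The fitted log2 fold changes were -3.06 in active and 1.48 in resting cells, a state difference of -4.55. Each of these groups has 2 libraries, and in resting cells the counts behind them were 206 and 90 read pairs and 211 and 532 read pairs. Trgc1 was 659.9 and 437 CPM and 139 and 59.4 CPM in the active groups, a log2 fold change of -2.46, and 60.4 and 30.2 CPM and 10.7 and 22.9 CPM in the resting groups, a log2 fold change of -1.403. The state differences of the members next in size were -2.69 for Trgc4 and -1.06 for Trgc1. The shares of all genes called at day 28 were 1.85% in active cells, 0.945% in resting cells and 0.0818% for the state difference.

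**Figure D2:**
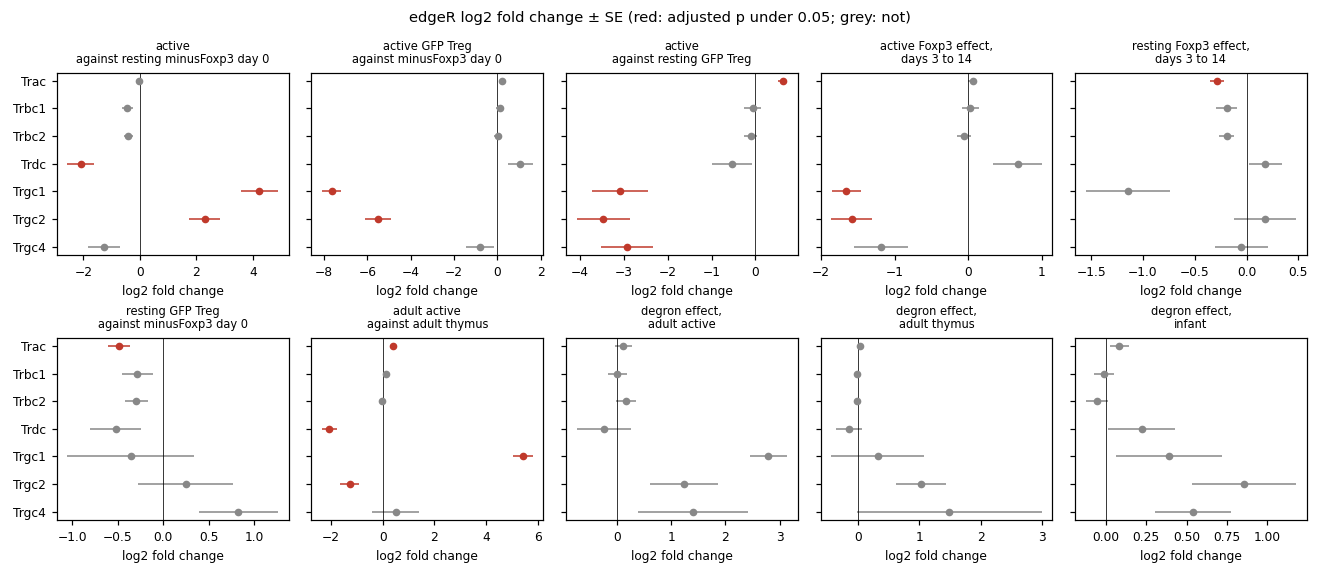
Log2 fold changes of the 7 constant genes from the edgeR fits, 1 panel per comparison, leaving out day 28, with a separate scale in each panel. Points are estimates, bars their standard errors and red points passed the threshold. Trgc1 lies left of 0 at -1.66 for active cells over days 3 to 14 and at -7.65 for active GFP Treg cells.

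Active GFP Treg cells, whose Foxp3 gene is intact, had hardly any gamma constant RNA. Such low values were not general to active Treg cells with Foxp3. Adult active degron cells named WT, counted under a stricter read filter, averaged 34.96 CPM of Trgc1. The difference between these cells and active GFP Treg cells was not tested. Trgc1 was 3.74 and 4.26 CPM in active GFP Treg libraries against 875 and 755 CPM in active minusFoxp3 libraries at day 0, a 204-fold difference of the means (log2 fold change -7.65 ± 0.45 (SE), edgeR adjusted p = 1.38e-08). Trgc2 was 0.304 and 0.998 CPM (16 and 48 read pairs) against 34.7 and 24.7 CPM (log2 fold change -5.50 ± 0.59 (SE), edgeR adjusted p = 9.01e-06). Both were called, as were 10% of all genes, and the other 5 members were not. Trgc4 was 0.854 and 2.62 against 3.47 and 2.66 CPM and Trdc 6.21 and 6.74 against 2.84 and 3.49 CPM (edgeR adjusted p = 0.573 and 0.343). Resting GFP Treg cells differed less, since only Trac was called against resting minusFoxp3 cells at day 0, at 1463 and 1479 against 2142 and 2014 CPM (log2 fold change -0.48 ± 0.12 (SE), edgeR adjusted p = 0.0339), where 2.91% of all genes were called. That call was lost without any 1 of the 4 libraries, without the count filter and in a fit of these 4 libraries alone, with adjusted p between 0.111 and 0.264. B cell markers summed to 551 to 595 CPM in the resting minusFoxp3 and 2157 to 2169 CPM in the resting GFP Treg libraries, and their part in the Trac difference was not tested. Trgc1 was 26.99 and 40.5 CPM in resting GFP Treg cells, against 54.9 and 32.4 CPM in resting minusFoxp3 cells.

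Without Foxp3, active cells had more Trgc1 and Trgc2 and less Trdc than resting cells. In minusFoxp3 cells at day 0, Trgc1 was 875 and 755 CPM in active and 54.9 and 32.4 CPM in resting libraries (log2 fold change 4.22 ± 0.66 (SE), edgeR adjusted p = 4.12e-05). Trgc2 was 34.7 and 24.7 and 5.91 and 6.15 CPM (log2 fold change 2.30 ± 0.55 (SE), edgeR adjusted p = 0.00421), a call that was lost without resting minusFoxp3 day 0 replicate 1 (adjusted p = 0.0563). Trdc was lower in active cells, at 2.84 and 3.49 against 11.8 and 15.03 CPM (log2 fold change -2.08 ± 0.48 (SE), edgeR adjusted p = 0.00291). This comparison shares its active minusFoxp3 libraries with that of active GFP Treg cells. Those libraries had 3.27 to 3.97 Trgc2 counts per 100 Trgc1 counts. In both comparisons, a difference of Trgc2 itself and Trgc1 reads counted as Trgc2 therefore cannot be told apart. These 3 members were called, and 13.4% of all genes were. Over days 0 to 14 the same 3 members had libraries that did not overlap between active and resting minusFoxp3 cells, against 12.5% of all genes. Trbc1 and Trbc2 did not differ past the threshold (edgeR adjusted p = 0.135 and 0.0706), although DESeq2 called Trbc2 (adjusted p = 0.048), and Trac had a log2 fold change of -0.04 (edgeR adjusted p = 0.857).

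In GFP Treg cells all 3 gamma genes were lower in the active state. Whether this contrast differs from the one in minusFoxp3 cells was not tested. Trgc1 was 3.74 and 4.26 CPM in active and 26.99 and 40.5 CPM in resting libraries (log2 fold change -3.09 ± 0.64 (SE), edgeR adjusted p = 0.00588). Trgc2 was 0.304 and 0.998 and 7.31 and 6.86 CPM (log2 fold change -3.47 ± 0.61 (SE), edgeR adjusted p = 0.00135), and Trgc4 0.854 and 2.62 and 11.5 and 14.6 CPM (log2 fold change -2.93 ± 0.60 (SE), edgeR adjusted p = 0.00507). Trac was higher in active GFP Treg cells, at 2335 and 2255 against 1463 and 1479 CPM (log2 fold change 0.62 ± 0.10 (SE), edgeR adjusted p = 0.000582), while Trbc1, Trbc2 and Trdc did not differ past the threshold. The 4 calls compare with 3.12% of all genes. Leaving out 1 of the 4 libraries leaves 1 library in its group, and the Trgc1 call then held in 1 of 4 fits. It was lost without active GFP Treg replicate 1 (adjusted p = 0.133), without active GFP Treg replicate 2 (adjusted p = 0.0531) and without resting GFP Treg replicate 2 (adjusted p = 0.0682). Trgc2 and Trgc4 each held in 3 of 4 and were lost without active GFP Treg replicate 1 (adjusted p = 0.075 and 0.185). In a fit of these 4 libraries alone Trgc4 was not called (adjusted p = 0.0547).

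A ratio within a library does not depend on the library total, so the summed counts of the 4 γδ genes were set against those of the 3 αβ genes. Exact two-sided permutation tests within days were used, with adjustment over 21 tests of single values. The log2 ratio was -4.30 ± 0.52 (SD, n = 6) in active plusFoxp3 and -2.67 ± 0.47 (SD, n = 6) in active minusFoxp3 libraries of days 3 to 14 (exact permutation p = 0.00926, 0.0486 after adjustment, the smallest p that this design allows). The 6 libraries of each group did not overlap. This call was lost without active minusFoxp3 day 3 replicate 2 or active plusFoxp3 day 3 replicate 1 (adjusted p = 0.0778 for each). MinusFoxp3 cells of days 0 to 14 had a ratio of -2.64 ± 0.40 (SD, n = 8) when active and -6.46 ± 0.25 (SD, n = 8) when resting (exact permutation p = 0.00154, 0.0162 after adjustment). In resting cells the ratio was -6.86 ± 0.28 (SD, n = 6) with and -6.47 ± 0.30 (SD, n = 6) without Foxp3, a difference that missed the threshold after adjustment (exact permutation p = 0.037, 0.111 after adjustment). As shares, the γδ genes held 8.88% to 20.7% of the 7 members' counts in the 10 active minusFoxp3 libraries of days 0 to 28, and 0.216% and 0.265% in the 2 active GFP Treg libraries.

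**Figure D3:**
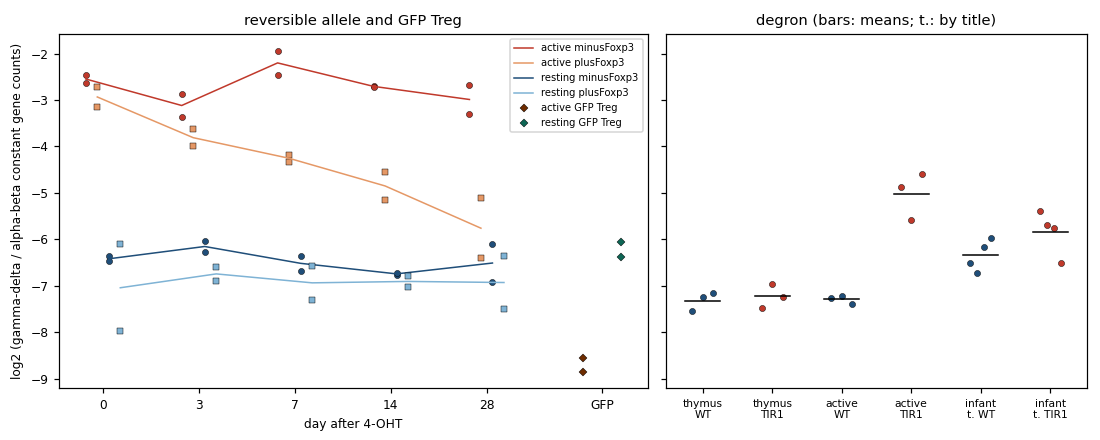
Log2 ratio of summed γδ (Trdc, Trgc1, Trgc2, Trgc4) to summed αβ (Trac, Trbc1, Trbc2) counts in each library, by day after 4-OHT on the left and by degron group on the right, where bars are group means. Active minusFoxp3 libraries lie from -3.36 to -1.93, resting reversible-allele libraries from -7.98 to -6.04.

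Trgc2 contributed little to the gamma sum in active cells and more in resting cells. Its percentage of Trgc1, Trgc2 and Trgc4 was 3.28 ± 0.66 (SD, n = 8) in active and 10.13 ± 4.23 (SD, n = 8) in resting minusFoxp3 libraries of days 0 to 14 (exact permutation test, p = 0.00154, 0.0162 after adjustment). In resting cells over days 3 to 14 it was 19.82 ± 6.54 (SD, n = 6) with and 9.87 ± 4.79 (SD, n = 6) without Foxp3 (exact permutation test, p = 0.037, 0.111 after adjustment), which missed the threshold after adjustment. Trbc1 held 28.7 to 40.2% of the Trbc1 and Trbc2 counts over the 44 libraries, and none of the 7 tests of this share passed the threshold after adjustment.

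Several variable and joining segments of the gamma locus were called in the same direction as Trgc1. The 11 gamma V and J rows summed to 80.3 and 81.97 CPM in active minusFoxp3 libraries at day 0 and to 0.551 and 0.894 CPM in active GFP Treg libraries. Trgv4, a V segment in the cassette of Trgc1, had 20.96 (lowest), 43.01 (median) and 60.4 (highest) CPM in active minusFoxp3 and 10.9 (lowest), 15.7 (median) and 29.7 (highest) CPM in active plusFoxp3 libraries of days 3 to 14. Over those days Trgv7 (log2 fold change -2.45 ± 0.43 (SE), edgeR adjusted p = 0.00361) and Trgj2 (log2 fold change -1.32 ± 0.27 (SE), edgeR adjusted p = 0.0136) fell. So did Trgv1 and the constant row Trgc3 (edgeR adjusted p = 0.0478 and 0.0198), where 3.18% of all genes were called. Since 96.1% of the first coding exon of Trgc3 equals that of Trgc1 and 7.64% of Trgc1 100-base windows recur in it, reads of the 2 rows cannot be fully told apart. Trgv4 itself missed the threshold (log2 fold change -1.18 ± 0.33 (SE), edgeR adjusted p = 0.0601). In active GFP Treg cells 9 of these rows, Trgc3 included, were called lower than in active minusFoxp3 cells at day 0. Among them were Trgv4 (log2 fold change -8.92 ± 0.89 (SE), edgeR adjusted p = 4.19e-06) and Trgj2 (log2 fold change -7.12 ± 0.68 (SE), edgeR adjusted p = 2.61e-06). Trgv6 was tested and not called (edgeR adjusted p = 0.147), and 2079 of all 20776 genes tested were called. Trgv4 was also lower in resting GFP Treg than in resting minusFoxp3 cells at day 0 (log2 fold change -4.58 ± 1.05 (SE), edgeR adjusted p = 0.0236). No other gamma V, J or Trgc3 row tested was called there, against 2.91% of all genes. The 10 delta V, D and J rows summed to 1.94 and 3.15 CPM in active minusFoxp3 libraries at day 0 and to 2.62 and 3.47 CPM in active GFP Treg libraries. Trdj1 was the one delta row called, lower in active than in resting minusFoxp3 cells at day 0 (log2 fold change -2.44 ± 0.62 (SE), edgeR adjusted p = 0.0074), as Trdc was.

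**Figure D4:**
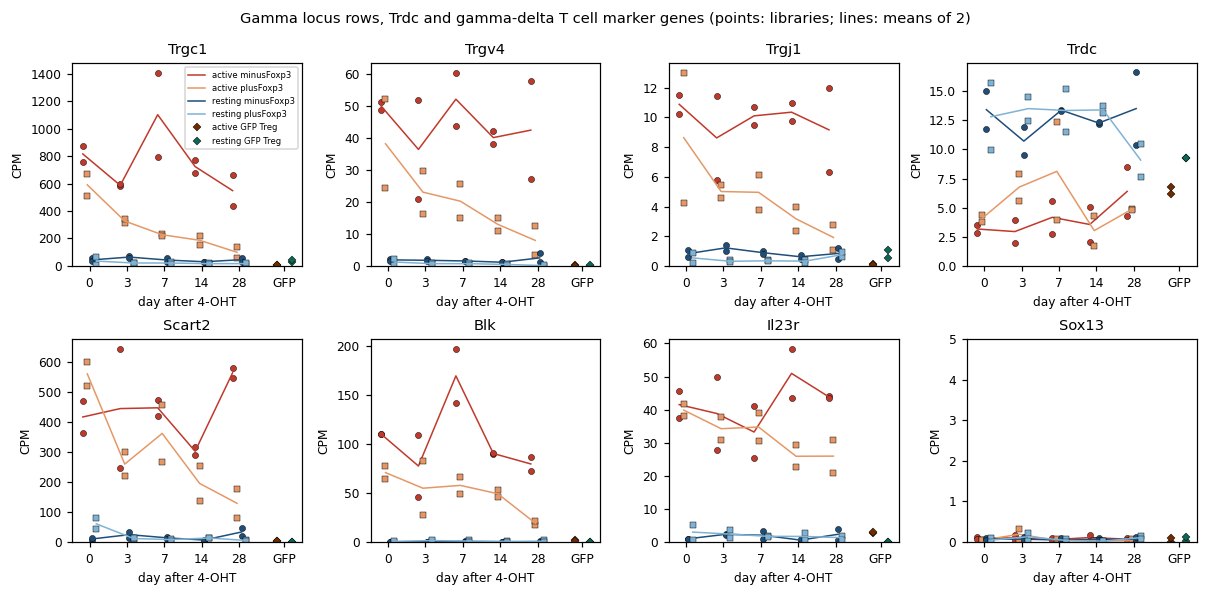
CPM of gamma locus rows, Trdc and γδ T cell marker genes by day after 4-OHT in the reversible-allele and GFP Treg libraries, 1 panel per row, points for libraries and lines for means of 2. Trgv4 in active minusFoxp3 libraries ranges from 20.96 to 60.4 CPM, while Sox13 does not exceed 0.323 CPM in active reversible-allele libraries.

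Some genes listed as γδ T cell markers were high in the cells with high Trgc1 and others were near 0. Of 9 markers listed, 7 were rows of the tables (Sox13, Scart1, Scart2, Blk, Il23r, Zbtb16 and Etv5). They summed to 334 (lowest), 654 (median) and 822 (highest) CPM in active minusFoxp3 libraries of days 0 to 28, and to 23.0 and 25.5 CPM in the 2 active GFP Treg libraries. In active plusFoxp3 libraries they summed to 228 (lowest), 359 (median) and 573 (highest) CPM over days 3 to 14 only. The days of the minusFoxp3 and plusFoxp3 sums are thus not matched, and no difference is read from them. Most of that sum was Scart2, a scavenger receptor, at 246 to 646 CPM in active minusFoxp3 libraries, followed by the kinase gene Blk at 45.7 to 197 CPM and the cytokine receptor gene Il23r at 25.4 to 58.4 CPM. Sox13, a transcription factor of γδ T cells, was at 0.0205 to 0.181 CPM and Zbtb16 at 0.342 to 2.41 CPM there, and Trdc at 1.94 to 8.49 CPM. Of 6 markers tested none was called over days 3 to 14 in active cells, and 5 were lower in active GFP Treg than in active minusFoxp3 cells at day 0. The same number was higher in active than in resting minusFoxp3 cells at day 0. Their part in the Trgc1 result was not tested.

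Markers of other cells were also summed beside these results. Those of B cells summed to 229 to 411 CPM in active minusFoxp3 and 755 to 1728 CPM in active plusFoxp3 libraries of days 3 to 14. Ighm made up most of that sum, with 304 to 311 CPM in active minusFoxp3 libraries at day 0 and 3754 to 3902 CPM in active GFP Treg libraries, whereas Pax5 did not exceed 1.16 CPM in active reversible-allele libraries. Markers of CD8 T and NK cells were 22.96 to 56.03 and 18.1 to 19.1 CPM, of myeloid cells 1.42 to 12.6 and 2.11 to 17.00 CPM, and of double-positive thymocytes 9.73 to 37.8 and 9.56 to 14.3 CPM in these groups. Their part in the results was not tested.

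Adult active and thymic Treg cells of the degron mice differed in 4 members. Organ and activation state cannot be told apart here. Averaged over genotypes, Trgc1, Trac, Trdc and Trgc2 were called between active and thymic Treg cells, as were 34.4% of all genes. Trgc1 was 41.6, 33.4 and 29.9 CPM in active WT and 238, 140.2 and 363 CPM in active TIR1 libraries, against 0.851, 1.97 and 3.31 CPM and 1.29, 3.70 and 2.67 CPM in the thymus (log2 fold change 5.43 ± 0.38 (SE), edgeR adjusted p = 3.19e-07). No active library overlapped a thymic one. The γδ T cell markers summed to 74.8 to 131 CPM in the active and 1.29 to 10.3 CPM in the thymic libraries, and the B cell markers to 937 to 1502 and 138 to 192 CPM. Their part in this difference was not tested. Trdc was higher in the thymus, where it was 28.6, 39.9 and 39.7 CPM in WT and 27.4, 39.1 and 30.96 CPM in TIR1 libraries, against 3.22 to 10.1 CPM in the 6 active libraries (log2 fold change -2.06 ± 0.29 (SE), edgeR adjusted p = 0.00012). Trgc2 was also higher in the thymus (log2 fold change -1.28 ± 0.37 (SE), edgeR adjusted p = 0.0176), and Trac higher in active cells, at 2964 to 4431 against 2786 to 3095 CPM (log2 fold change 0.40 ± 0.09 (SE), edgeR adjusted p = 0.00327). Trbc1, Trbc2 and Trgc4 did not differ past the threshold (edgeR adjusted p = 0.282, 0.859 and 0.724).

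The make-up of the gamma sum also differed. Trgc2 held 3.18 ± 2.07 (SD, n = 6) percent of Trgc1, Trgc2 and Trgc4 in adult active and 67.77 ± 9.05 (SD, n = 6) percent in thymic libraries (exact permutation test within genotypes, p = 0.005, 0.035 after adjustment). In the thymus Trgc2 counts exceeded those of Trgc1 in all 6 libraries, with 149 to 746 Trgc2 counts per 100 Trgc1 counts. The γδ to αβ log2 ratio was -6.15 ± 1.29 (SD, n = 6) in adult active and -7.27 ± 0.21 (SD, n = 6) in thymic libraries and missed the threshold after adjustment (exact permutation test, p = 0.045, 0.118 after adjustment). The double-positive thymocyte markers summed to 57.3 to 75.3 CPM in thymic and 11.1 to 20.8 CPM in adult active libraries, with Rag1 at 0 in all 20 degron libraries, and their part in the Trdc difference was not tested. Trgc4 was at 0 counts in thymic WT replicate 2, where the limit that a count of 0 allows is 3 read pairs.

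Degradation of Foxp3 in adult active cells went with higher Trgc1 in libraries named TIR1, but edgeR did not call it. The 3 TIR1 libraries had 238, 140.2 and 363 CPM and the 3 WT libraries 41.6, 33.4 and 29.9 CPM, a 7.06-fold difference of means without overlap. The log2 fold change was 2.79 ± 0.34 (SE), with an edgeR p of 2.7e-05 and an adjusted p of 0.241. Across all genes edgeR called 0%, and 1 of 7 members, Trgc1, had an unadjusted p under 0.05. DESeq2 called Trgc1 (adjusted p = 2.42e-14) with 0.144% of all genes, and edgeR called it when no count filter was used (adjusted p = 0.0194). Under the recorded attachment the same libraries would be WT, and the difference would point the other way.

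Trgc2 in adult active cells was 4.20, 4.03 and 4.66 CPM in TIR1 and 3.21, 0.982 and 1.11 CPM in WT libraries, also without overlap (log2 fold change 1.24 ± 0.63 (SE), edgeR adjusted p = 1). Such separation held for 10.1% of all genes. Trac, Trbc1, Trbc2, Trdc and Trgc4 overlapped between the genotypes, with log2 fold changes from -0.24 for Trdc to 1.399 for Trgc4. The γδ to αβ log2 ratio was -5.01 ± 0.52 (SD, n = 3) in TIR1 and -7.29 ± 0.09 (SD, n = 3) in WT libraries, and the exact permutation p was 0.1, the smallest that 3 against 3 libraries allow. The summed γδ T cell markers were 74.8 to 131 CPM in TIR1 and 86.9 to 117 CPM in WT libraries, with Sox13 at 0 in all 6. CD8 T and NK cell markers summed to 29.4 to 41.3 CPM in TIR1 and 19.9 to 27.3 CPM in WT libraries, and B cell markers to 937 to 1014 CPM and 1088 to 1502 CPM, both without overlap. The part of these markers in the Trgc1 and Trgc2 differences was not tested. The gamma V and J rows summed to 5.49 to 9.25 CPM in TIR1 and 1.85 to 2.49 CPM in WT libraries.

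**Figure D5:**
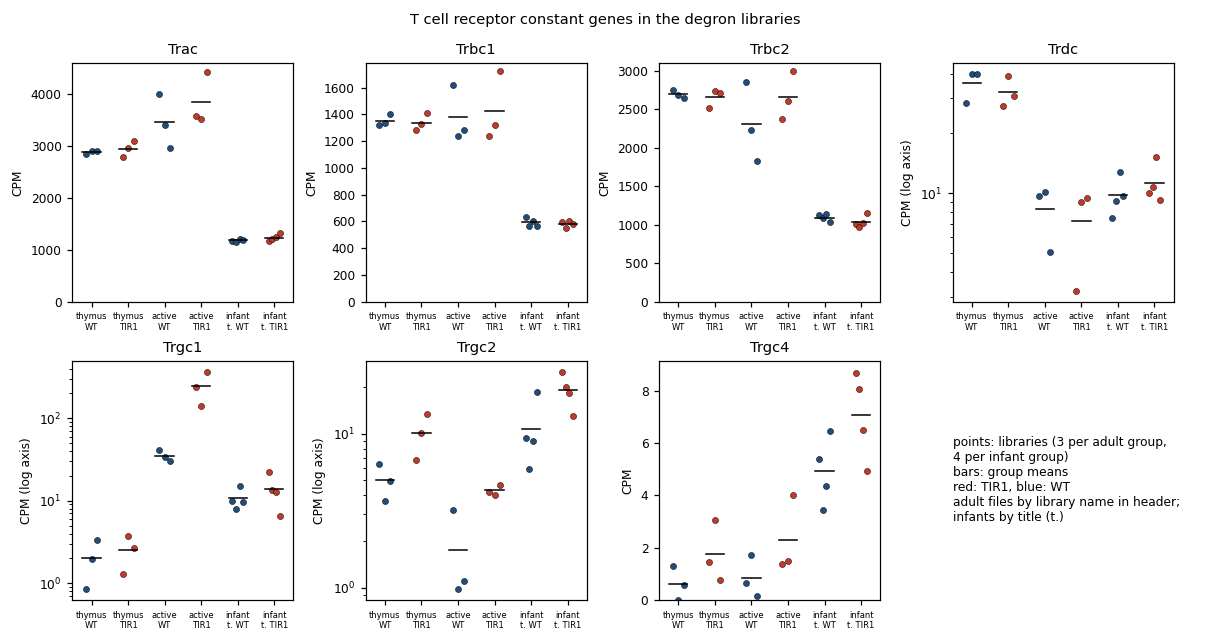
CPM of the 7 constant genes in the degron libraries, 1 panel per gene, with points for libraries and bars for group means, adult files taken by the library name in their header and infants by title (t.). The 3 adult active TIR1 libraries have 140.2 to 363 CPM of Trgc1, above the 3 WT libraries at 29.9 to 41.6 CPM.

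In the adult thymus none of the 7 members was called between genotypes by edgeR or DESeq2. Trgc2 was 6.73, 10.1 and 13.5 CPM in TIR1 and 6.35, 3.65 and 4.93 CPM in WT libraries (log2 fold change 1.03 ± 0.40 (SE), edgeR adjusted p = 0.661) and was the 1 member with an unadjusted p under 0.05 and the 1 member without overlap. Of all genes 13.0% did not overlap, edgeR called 0% and DESeq2 1.10%. Trgc1 was 1.29, 3.70 and 2.67 and 0.851, 1.97 and 3.31 CPM, and Trdc 27.4, 39.1 and 30.96 and 28.6, 39.9 and 39.7 CPM, both overlapping. B cell markers summed to 138 to 157 CPM in TIR1 and 178 to 192 CPM in WT libraries, and their part in the Trgc2 value was not tested. The αβ genes had log2 fold changes of 0.03 for Trac, -0.02 for Trbc1 and -0.02 for Trbc2.

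Infant Treg cells had 59 to 197 Trgc2 counts per 100 Trgc1 counts. Trgc2 was 25.2, 20.1, 18.3 and 13.02 CPM in libraries titled TIR1 and 9.32, 5.89, 8.99 and 18.5 CPM in those titled WT, which overlapped through titled WT replicate 4 alone. With all 8 libraries it was not called (log2 fold change 0.86 ± 0.32 (SE), edgeR adjusted p = 0.21), and without titled WT replicate 4 it was (log2 fold change 1.26, edgeR adjusted p = 0.00371). Over all genes, edgeR called 3 with all 8 libraries and 1774 without that one. DESeq2 called Trgc2 with all 8 (adjusted p = 0.0487). No member was called by edgeR, 2 had an unadjusted p under 0.05, and the background was 0.0185% of genes called by edgeR and 6.83% by DESeq2. Trgc1 was 22.5, 13.6, 12.8 and 6.61 and 9.96, 7.99, 15.1 and 9.55 CPM (log2 fold change 0.39 ± 0.33 (SE), edgeR adjusted p = 0.574), and Trgc4 8.69, 8.07, 6.503 and 4.94 and 5.37, 3.44, 4.36 and 6.47 CPM (log2 fold change 0.54 ± 0.23 (SE), edgeR adjusted p = 0.266). None of the 7 members had libraries that did not overlap, against 8.73% of all genes. The γδ T cell markers summed to 8.47 to 13.2 CPM in libraries titled TIR1 and 14.8 to 20.4 CPM in those titled WT. CD8 T and NK cell markers summed to 41.9 to 47.4 and 25.6 to 42.6 CPM and B cell markers to 345 to 447 and 282 to 346 CPM in the same order, and their part in these values was not tested. Trac was at 1141 to 1323 CPM, Trbc1 at 547 to 633 CPM and Trbc2 at 972 to 1156 CPM. No test was made between infants and adults.

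Of the other parts of the receptor complex, Cd4, the coreceptor, was the one called between plusFoxp3 and minusFoxp3 cells over days 3 to 14. Of 8 CD3 and coreceptor genes, 7 were tested in the active cell fit and 1, Cd4, fell over days 3 to 14 (log2 fold change -0.73 ± 0.11 (SE), edgeR adjusted p = 0.000807). The median of the 7 was -0.15, against -0.0038 for all genes. In resting cells Cd4 was again the 1 of 7 that fell over days 3 to 14 (log2 fold change -0.73 ± 0.10 (SE), edgeR adjusted p = 0.000545). Cd4 is the gene whose locus carries CreERT2 in plusFoxp3 mice, while minusFoxp3 mice lack that allele. Untreated plusFoxp3 mice of day 0 carry it too, and none of the 7 tested was called there in either state. Over all genes, edgeR called 1 in each state at day 0. The part of this allele in the Cd4 difference was not tested. None of this list was called against active or resting GFP Treg cells, nor between the degron genotypes, while 2 were higher and 2 lower in adult active than in thymic cells.

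Of 15 genes known to act on the T cell receptor loci, 12 were tested in active cells. Over days 3 to 14, 1 rose and 1 fell, namely Id3 (log2 fold change 1.12 ± 0.22 (SE), edgeR adjusted p = 0.0101) and Id2 (log2 fold change -0.91 ± 0.20 (SE), edgeR adjusted p = 0.0226), which encode inhibitors of E proteins. Between active GFP Treg and active minusFoxp3 cells at day 0, Id3 (log2 fold change 3.66 ± 0.42 (SE), edgeR adjusted p = 1.79e-05) and Gata3 (log2 fold change 0.54 ± 0.16 (SE), edgeR adjusted p = 0.0466) rose and Id2 (log2 fold change -2.40 ± 0.37 (SE), edgeR adjusted p = 0.000347) fell. Between active and resting minusFoxp3 cells at day 0, Runx3 (log2 fold change 1.73 ± 0.22 (SE), edgeR adjusted p = 2.1e-06) and Id2 (log2 fold change 1.61 ± 0.32 (SE), edgeR adjusted p = 0.000777) were among the genes higher in active cells and Id3 (log2 fold change -4.12 ± 0.39 (SE), edgeR adjusted p = 2.8e-08) was lower. Between adult active and thymic cells, 5 of 12 tested were higher and 5 lower in active cells, where 34.4% of all genes were called. Among them were Il7r and Stat5a, of the IL-7 pathway that opens the gamma locus in thymocytes, in opposite directions (log2 fold change 3.77 ± 0.12 (SE), edgeR adjusted p = 6.42e-10 and log2 fold change -1.78 ± 0.15 (SE), edgeR adjusted p = 1.93e-06).

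Across the 44 reversible-allele and GFP Treg libraries, the profile of Trgc1 on the log2 CPM scale was most like those of Socs2, Lgals3bp and D16Ertd472e among 12262 genes whose mean reached 100 counts (Pearson's r = 0.94, 0.93 and 0.93). The profiles most like Trgc2 were those of Nqo2, Rexo2 and Lsp1 (r = 0.85, 0.83 and 0.83). For Trdc they were Trpm1, Pip4k2a and Lef1 (r = 0.85 each), and for Trgc4 Npm1 (r = 0.78). Among the αβ genes, Trbc2 was most like 2510002D24Rik (r = 0.91), Trbc1 most like Bod1l (r = 0.81), and Trac most like Ankrd12 (r = 0.70). Among the members themselves r was 0.84 for Trgc1 and Trgc2, 0.81 for Trbc1 and Trbc2, and -0.67 for Trdc and Trgc1. These values are descriptions over 44 libraries, which share groups, and the paired genes also share sequence.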

How the data were processed

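Bulk RNA-seq libraries (SMART-Seq v4) of 64 samples were analysed. The authors deposited raw counts of read pairs per gene, made with featureCounts 2.0.3 per the file headers, on mm39 (GRCm39) with the GENCODE vM30 annotation and without strand. In the headers, the 20 degron libraries were restricted to primary alignments that were not chimeric and reached mapping quality 30, whereas the other 44 were not, which bears most on near-identical members. The study's methods name STAR as the aligner, while the submitters' processing notes list Bowtie2, and which was used was not settled here. No rows without a gene and no unmapped columns were found.

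Counts were divided by the library total to give CPM. edgeR 4.0.16 (R 4.3.3) was fitted with TMM size factors and a robust quasi-likelihood test, over genes with a mean count of at least 10, and p-values were adjusted by Benjamini-Hochberg over all genes tested (threshold 0.05). The 20 resting, the 20 active and their GFP Treg libraries shared a fit by state, contrasts between states used all 44 libraries, and degron cells were fitted by cell type. DESeq2 1.42.0, RLE size factors, no count filter, a replicate block, summed pairs, the compared libraries alone and leaving out single libraries were alternatives. The scripts were tested on simulated data. Single values were tested with exact two-sided permutation tests over libraries, within strata. The study describes its replicates as independent biological replicates, while the labels do not name the mouse behind each library. Replicate pairs differed by more than sampling noise in all 46 pairs compared. The SE and SD values include the spread between libraries, whereas the limit given for a count of 0 covers counting error only. Named genes were all 7 members, Foxp3, called members of 2 gene lists (at most 4 per list and comparison), rows of the receptor loci and the 3 most similar profiles per member. Some genes of these lists are not reported here. The members and lists were chosen with earlier results of these data known. Sequences and gene positions were read from the GRCm39 reference and its gene annotation.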

Additional observations from a re-analysis of the deposited data

Results flagged for a closer look

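The state difference of the Foxp3 effect on Trgc2 at day 28 was -4.55 on the log2 scale, active minus resting. It was flagged by a rule that takes members whose edgeR state difference passed the threshold. The state difference of Trgc2 chose the gene family, so the flag supports nothing and no p-value is given. Both active plusFoxp3 libraries lay below both active minusFoxp3 libraries, whereas in resting cells both plusFoxp3 libraries lay above both minusFoxp3 libraries. At day 28 Trac, Trbc1 and Trbc2 also separated in opposite directions in the 2 states, and the rule did not flag them. The check for a single distant library needed at least 4 libraries in a group, so it covered the infant groups only. None was found in their 20 sets of 4 values. The reversible-allele, GFP Treg and adult degron groups were too small for this check.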

How the results depend on the processing

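Counts below are of the 7 members called. Trgc1 and Trgc2 in active cells over days 3 to 14 kept their calls under each alternative run. With the near-identical pairs summed, 1 row, the sum of Trgc1 and Trgc2, was called in active cells over days 3 to 14 and against GFP Treg cells. That sum is mostly Trgc1, so its call does not bear on Trgc2 alone. For resting cells over days 3 to 14 the count was 0 with RLE size factors, 0 with summed pairs and 2 (Trgc1 and Trac) in the compared libraries alone, and without the filter it was 1, with Trgc1 in place of Trac. For resting GFP Treg cells it was 0 without the count filter and 0 in the compared libraries alone. For resting cells at day 0 it was 1 without the filter and 1 by DESeq2. The state difference over days 3 to 14 gave 1 without the filter, 2 with the replicate block and 2 by DESeq2. Counts of calls at day 28 are not given, because values of that day chose the family. In the degron experiment adult active cells gave 1 without the filter and 1 by DESeq2, and infants 1 by DESeq2. Without the count filter, the edgeR adjusted p of some gamma genes was far below that of the main fit. For Trgc1 in resting cells over days 3 to 14 it was 7.85e-12 against 0.175. Calls that edgeR made only without the filter are therefore not read as support. Causes were not tested.

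With files taken by their recorded sample, the adult active difference was -2.28 for the γδ to αβ log2 ratio, 2.93 for the Trbc1 percentage and 2.53 for the Trgc2 percentage. In the thymus the difference of the Trgc2 percentage was -5.17. Per kilobase, the log2 ratio difference of adult active against thymic cells was 2.28 and passed the threshold.

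Replicate numbers did not mark a shared batch in the labels, and same-numbered libraries deviated together with r from -0.122 to 0.221. The highest values were those between active and resting libraries, 0.221 for minusFoxp3 cells at day 0 and 0.197 for GFP Treg cells. The main fit treats the 2 states as independent, and the labels do not say whether they share mice. The replicate block changed no member count other than that of the state difference by over 1.5 times, where genes called went from 96 to 150. Since r was -0.122 for active GFP Treg cells, a crossed block was added after seeing the data, with 2264 genes called against 2238 with the block and 2079 without it.

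Leaving out single libraries gave 0 to 3 members for resting cells at day 0, 0 to 0 over days 3 to 14 and 0 to 0 against GFP Treg cells. It gave 0 to 0 for active cells at day 0, 2 to 2 over days 3 to 14 and 2 to 2 against GFP Treg cells. For active against resting cells it gave 2 to 3 in minusFoxp3 and 1 to 4 in GFP Treg cells, and 0 to 1 for the state difference, called without active plusFoxp3 day 14 replicate 1, resting plusFoxp3 day 3 replicate 2 or resting minusFoxp3 day 14 replicate 1. In the degron experiment it gave 0 to 0 in thymus, 0 to 0 in adult active cells, 0 to 1 in infants and 4 to 4 for active against thymus. Log2 ratio differences ranged from -0.52 to -0.27 in resting cells (called without resting plusFoxp3 day 7 replicate 1), -1.73 to -1.53 in active cells, 3.75 to 3.88 for active against resting, -0.04 to 0.22 in thymus, 2.06 to 2.57 in adult active cells, 0.36 to 0.73 in infants and 1.01 to 1.27 for active against thymus. In the same order, Trbc1 percentage differences ranged from -0.547 to 0.601, -0.305 to 3.12, -0.861 to 1.71, -0.389 to 0.705, -3.94 to -1.15, 0.326 to 1.58 and 1.93 to 3.32, the last called without adult active TIR1 replicate 2. Trgc2 percentage differences ranged from 7.79 to 12.1, -0.155 to 0.544, -7.97 to -5.72, 0.420 to 10.3, -3.40 to -1.23, 6.79 to 14.1 and -67.2 to -62.2. Single libraries were not left out at day 28. Where a group kept 1 library, it was assumed to vary like the other groups.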
